A study of Homo sapiens with 4 samples.

Results

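Genes for the plasma membrane and lysosomal carriers of amino acids and of amino acid related transmitters were followed in the established lung cancer line NCI-H1703, of human origin. They were chosen by symbol, as the protein-coding genes of the solute carrier families SLC1, SLC6, SLC7, SLC36, SLC38 and SLC43, with SLC7A11 left out. The count table held 56 such genes among 48162. One of the 56, SLC7A6OS, carries the name of its opposite-strand neighbour SLC7A6 and is not a transporter, so 55 transporter genes remain. SLC6A14 had no count under the identifier that the reference gives and is not analysed here. In 2 libraries, lettered A and B, EGFR-AS1, a long noncoding RNA antisense to the EGFR gene, was stably overexpressed. In the other 2 libraries, also A and B, the cells carried the pCDNA vector. All cells were grown in RPMI medium with 10% fetal bovine serum under 100 µg/ml hygromycin, at passages given as 20 to 31 for 3 libraries and 20 to 30 for vector A. The labels do not say whether the stable cells were a clone or a pool, or whether A and B were separate cultures. The p-values therefore measure only the spread between these libraries, which may be technical. The question is which carrier transcripts differ at a higher EGFR-AS1 level.

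These carriers set which amino acids enter, leave or stay in a cell. Some, such as the SLC38 carriers of the plasma membrane, bring in neutral amino acids with sodium. Others are exchangers, such as SLC7A5, which needs the heavy chain SLC3A2 to reach the membrane and trades intracellular glutamine for leucine and other large neutral amino acids. In neurons and glia, members of SLC1 and SLC6 clear glutamate, glycine, GABA and monoamines from the synapse, while in other tissues SLC6 members carry osmolytes and creatine. When amino acids run short, the transcription factor ATF4 induces many of the SLC7, SLC1 and SLC38 genes together with enzymes of amino acid synthesis.

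EGFR-AS1 had 670 and 586 reads in overexpression A and B, against 59 and 37 in vector A and B, a log2 fold change of 3.86 with SE 0.22 (adjusted p = 5.62e-09 by edgeR). The libraries held 32680467 and 33750041 counted reads with overexpression and 41518275 and 32601449 in vector. The genes fixed as marks of the line differed between the groups: all 4 that could be tested passed, 1 higher and 3 lower. Among all tested genes 14.5% passed, 7.8% higher and 6.67% lower. The part of these marks in the results below was not tested. Of the receptor genes known to be amplified in the line, FGFR1 had 1516 and 1368 CPM (read counts scaled by the TMM-adjusted library size) in overexpression A and B against 612 and 782 CPM in vector A and B (log2 fold change 1.05, edgeR adjusted p = 6.15e-05). PDGFRA had 467 and 561 CPM in overexpression A and B against 852 and 680 CPM in vector A and B (-0.57, edgeR adjusted p = 0.00909), and missed the threshold without overexpression A. The epithelial keratin KRT18 had 33.8 and 28.2 CPM in overexpression A and B against 68 and 82.5 CPM in vector A and B, and KRT8 had 2.99 and 2.17 CPM in overexpression A and B against 5.1 and 5.9 CPM in vector A and B; both were lower, KRT8 not without overexpression B. KRT19 had at most 9 reads in a library. Of markers of other cells, 5 leukocyte genes summed to 0.0891 to 0.423 CPM with overexpression and 0.118 to 0.666 CPM in vector. The 4 endothelial genes with a count summed to 0.178 to 0.332 CPM with overexpression and 0.0708 to 0.127 CPM in vector, with KDR and EMCN at 0 reads in every library. The 5 fibroblast genes summed to 11.9 to 14.4 CPM with overexpression and 5.43 to 8.71 CPM in vector, most of it COL1A1. Of these, COL3A1 passed the test (1.33 and 0.891 CPM in overexpression A and B against 0.236 and 0.508 CPM in vector A and B), COL1A1 did not, and DCN had 39 reads in overexpression A and 0 in the other 3 libraries. The 6 neuroendocrine genes summed to 18.6 to 19.8 CPM with overexpression and 16.4 to 22.3 CPM in vector, with NCAM1 at 0 reads. Of the 3 tested, 1 passed, higher with overexpression, beside 7.8% higher among all tested genes. The part of these markers in the results below was not tested.

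Per length, the highest transporter transcripts were those of glutamine and large neutral amino acid traffic. SLC7A5 stood at 160 CPM per kilobase of exon with overexpression and 224 CPM per kilobase in vector. SLC38A2, a sodium-coupled carrier of small neutral amino acids, stood at 147 CPM per kilobase with overexpression and 131 CPM per kilobase in vector. SLC1A5, the glutamine and neutral amino acid exchanger, stood at 122 CPM per kilobase with overexpression and 136 CPM per kilobase in vector. These were the 3 highest of the 29 tested transporter genes in both groups. SLC7A5 was the highest of the 3 in both, but between SLC38A2 and SLC1A5 the order differed between the groups. At lower levels came the cationic amino acid carrier SLC7A1 (38.1 CPM per kilobase with overexpression and 49.1 in vector), SLC38A1 (38.8 with overexpression and 45.6 in vector), SLC38A10 (36.3 with overexpression and 40.4 in vector) and the creatine carrier SLC6A8 (28.1 with overexpression and 36.7 in vector). All other tested transporters were at 16.4 CPM per kilobase or less in each group. Summed over the 55 genes, transporter transcripts took 3760 and 3780 CPM in overexpression A and B and 4430 and 4010 CPM in vector A and B. The 6 most abundant genes made up 82.0% and 82.4% of that sum with overexpression and 84.3% and 82.8% in vector.

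**Figure D1:**
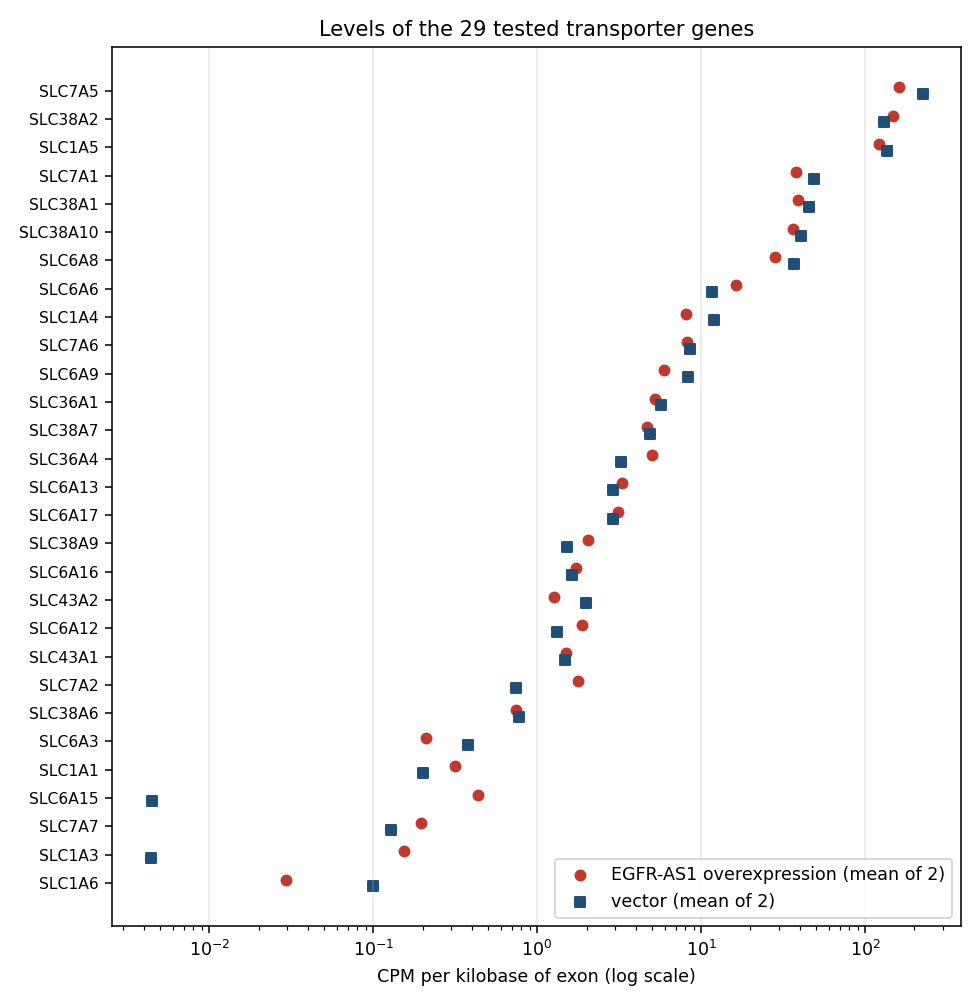
Mean CPM per kilobase of exon (log scale) of the 29 tested transporter genes with EGFR-AS1 overexpression (circles) and vector (squares), n = 2 libraries each. SLC7A5, SLC38A2 and SLC1A5 lie above 100 CPM per kilobase in both groups, and SLC6A15 and SLC1A3 have vector levels of 0.00449 and 0.00442.

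Of the 56 genes, 30 passed the filter on low counts, and 11 of these passed the test, 5 higher and 6 lower with overexpression. Across all 16106 genes tested, 14.5% passed, 7.8% higher and 6.67% lower. The median log2 fold change was -0.06 over the 30 genes and 0.00 over all tested genes. The groups did not overlap for 22 of the 30, against 55.5% of all tested genes; 12 of these were higher (28.3% of all genes) and 10 lower (27.2%). Of the 8 genes of at least 100 CPM, 4 passed, 3 of them lower, against 13.4% passing and 8.64% lower among all genes at that level. SLC6A15 and SLC1A3 passed the filter only through the overexpression libraries, so they had to differ to be tested, and the share that passed is a description only. By family, which was not tested, the SLC38 genes had 0 of 6 tested past the threshold, with 1 of 6 (SLC38A9) at an unadjusted p under 0.05 by edgeR and 0 past the test by DESeq2. Among the other families 3 of 5 tested SLC1 genes, 3 of 9 SLC6 genes, 3 of 5 SLC7 genes, 1 of 2 SLC36 genes and 1 of 2 SLC43 genes passed. Without overexpression A, 5 passed, 4 higher and 1 lower, against 7.81% of all genes (4.05% higher, 3.76% lower). Without overexpression B, 4 passed, 3 higher and 1 lower, against 7.59% of all genes (4.66% higher, 2.93% lower). Without vector A, 10 passed, 6 higher and 4 lower, against 21.2% of all genes (12.0% higher, 9.19% lower). Without vector B, 12 passed, 5 higher and 7 lower, against 17.9% of all genes (9.17% higher, 8.75% lower).

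**Figure D2:**
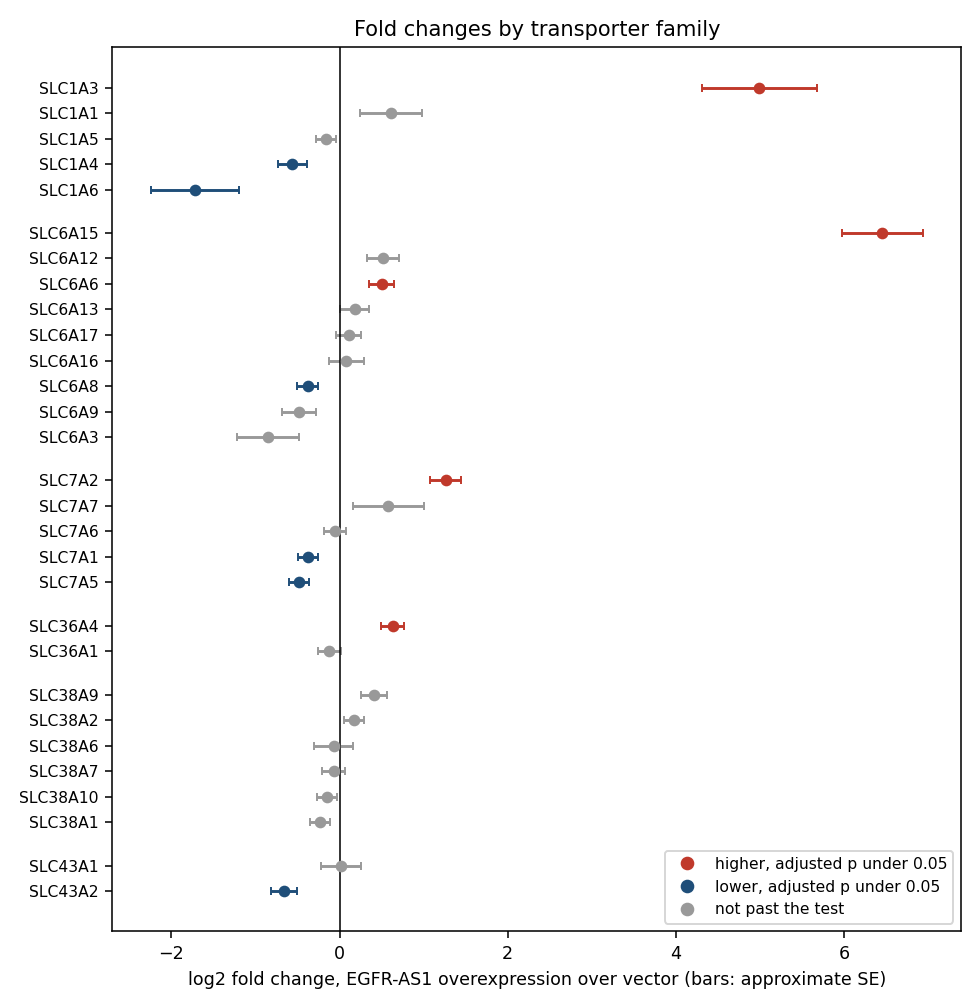
Log2 fold change, EGFR-AS1 overexpression over vector, of the 29 tested transporter genes by family, with approximate SE (n = 2 libraries each). SLC6A15 (6.45) and SLC1A3 (4.99) lie far to the right, and the 6 SLC38 genes lie between -0.23 and 0.41.

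The rises were led by a pair of genes nearly silent in vector cells. SLC6A15 encodes a sodium-coupled carrier of branched-chain amino acids and proline that is best known from the brain. It had 130 and 127 reads in overexpression A and B against 2 and 1 in vector A and B. That is 3.93 and 3.77 CPM in overexpression A and B, and both vector libraries were close to empty. In bulk RNA, more cells with the transcript and more of it per cell cannot be told apart, here and in all results below. The ratio of summed reads, scaled for depth, was 94.8 (exact 95% Clopper-Pearson interval 32.1 to 463, for counting error only), and edgeR gave an adjusted p of 1.24e-07. SLC1A3, a glutamate and aspartate carrier of glia, had 29 and 36 reads in overexpression A and B against 1 and 1 in vector, a ratio of 36 (interval 9.56 to 303; edgeR adjusted p = 8.39e-05). Both genes passed the filter only through the overexpression libraries, so these p-values are a description only. Even with overexpression both stayed low per length, SLC6A15 at 0.438 and SLC1A3 at 0.155 CPM per kilobase.

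The third rise was in the family of cationic amino acid carriers. SLC7A2, which takes up arginine, lysine and ornithine, had 13.3 and 14.7 CPM in overexpression A and B against 5.78 and 5.90 CPM in vector A and B. The groups lay far apart and each pair of libraries close together, with a log2 fold change of 1.26 (SE 0.18; adjusted p = 0.000183, edgeR). SLC6A15, SLC1A3 and SLC7A2 passed in every alternative in which they were tested, 11 each for SLC6A15 and SLC7A2 and 10 for SLC1A3, which the filter of 1 CPM in 2 libraries left out. For SLC6A15 and SLC1A3, which passed the filter only through the overexpression libraries, this is a description and no further support. SLC36A4, a carrier of proline and tryptophan, had 45.1 and 52.2 CPM in overexpression A and B against 28.4 and 34.4 CPM in vector (log2 fold change 0.63, SE 0.14, edgeR adjusted p = 0.00600). It did not pass without overexpression B (edgeR adjusted p = 0.102; 2.37e-05 to 0.102 over the alternatives). SLC6A6, the taurine carrier, had 138 and 132 CPM in overexpression A and B against 79.1 and 112 CPM in vector A and B. Both overexpression libraries were above both vector libraries, which were themselves far apart, and the log2 fold change of 0.50 (SE 0.15; adjusted p = 0.0307, edgeR) was 0.26 without vector A and 0.77 without vector B. Its adjusted p ran from 7.79e-07 to 0.167 over the alternatives and missed the threshold without vector A and without either overexpression library.

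**Figure D3:**
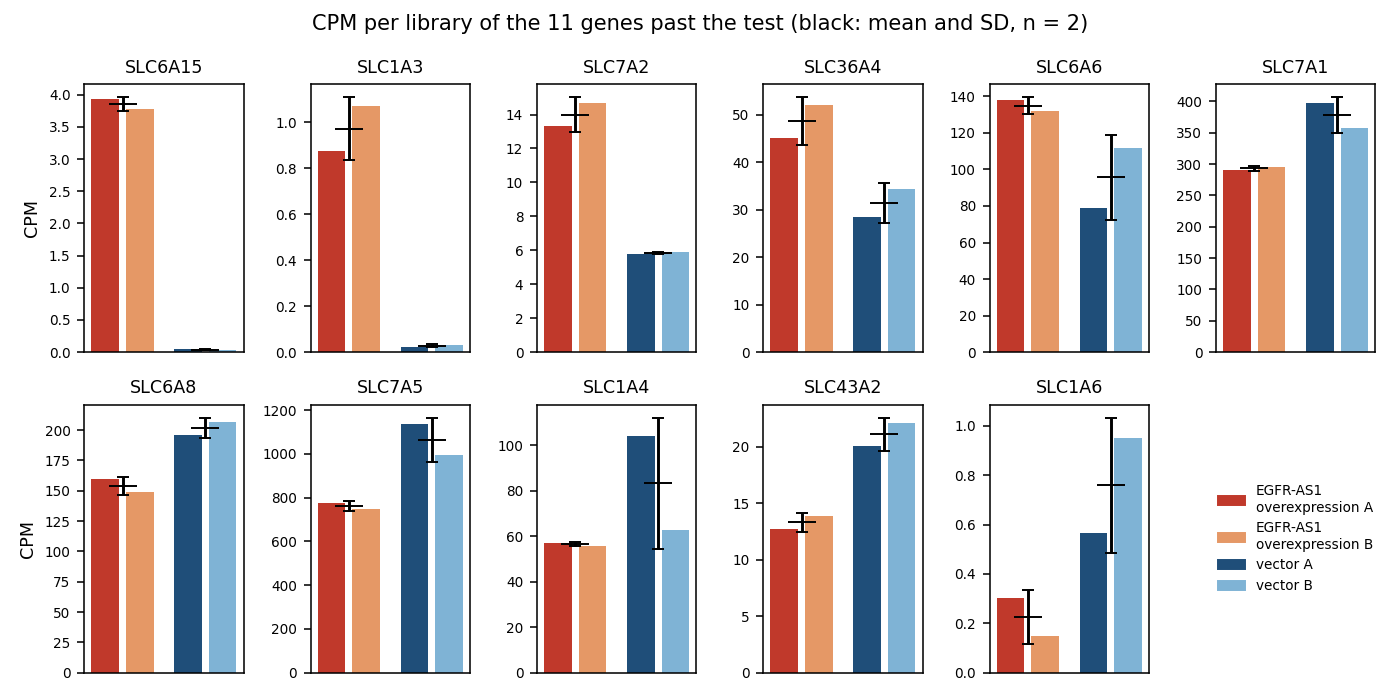
CPM in each library of the 11 transporter genes past the test, EGFR-AS1 overexpression A and B left of vector A and B in each panel; black marks give mean and SD (n = 2). In SLC1A4 and SLC6A6 the vector libraries stand apart (104 and 62.8 CPM, 79.1 and 112 CPM), while SLC7A2 has 5.78 and 5.90 CPM in vector.

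The falls took in the most abundant exchanger and its partner. SLC7A5 had 777 and 746 CPM in overexpression A and B against 1135 and 993 CPM in vector A and B. The groups did not overlap, and the log2 fold change was -0.48 (SE 0.12; adjusted p = 0.0116, edgeR). Its heavy chain SLC3A2 had 320 and 321 CPM in overexpression A and B against 444 and 404 CPM in vector, with a log2 fold change of -0.40 (SE 0.12; adjusted p = 0.0290, edgeR). Neither passed without overexpression A or without overexpression B (0.00129 to 0.311 for SLC3A2 over the alternatives). The adjusted p of SLC7A5 was 0.165 without overexpression A and 0.266 without overexpression B (4.21e-06 to 0.266 over the alternatives), at log2 fold changes of -0.52 and -0.46. The pseudogene SLC7A5P1, whose reads can be shared with SLC7A5, stood at 1.45 to 2.05 CPM. The other heavy chain gene, SLC3A1, was at 0.643 ± 0.183 CPM with overexpression and 0.659 ± 0.169 CPM in vector (SD, n = 2; log2 difference -0.05, edgeR adjusted p = 0.957), and the sign of that difference turned without vector A or overexpression A.

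Carriers of cationic and large neutral amino acids fell as well. SLC7A1, the widespread arginine and lysine carrier, had 290 and 296 CPM in overexpression A and B against 398 and 358 CPM in vector A and B (log2 fold change -0.37, SE 0.12, edgeR adjusted p = 0.0488). It lay just inside the threshold and outside it without vector A, overexpression A or overexpression B (0.00328 to 0.391 over the alternatives). It thus moved against SLC7A2, its relative of the same transport class, although SLC7A1 stayed far higher per length, at 38.1 against 1.77 CPM per kilobase with overexpression and 49.1 against 0.739 CPM per kilobase in vector. SLC43A2, a carrier that lets large neutral amino acids pass without exchange, had 12.7 and 13.9 CPM in overexpression A and B against 20.1 and 22.1 CPM in vector. Its log2 fold change was -0.66 (SE 0.16; adjusted p = 0.00927, edgeR), and it missed the threshold without overexpression A (0.106; 0.000366 to 0.106 over the alternatives). SLC43A1, its relative, averaged 5.28 ± 0.868 CPM with overexpression and 5.18 ± 1.58 CPM in vector (SD, n = 2) and did not pass.

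SLC6A8, which imports creatine, had 160 and 149 CPM in overexpression A and B against 196 and 207 CPM in vector A and B. All 4 libraries were in order by group, with a log2 fold change of -0.38 (SE 0.12; adjusted p = 0.0372, edgeR), and the call was lost without either overexpression library (0.00565 to 0.436 over the alternatives). Reads of SLC6A8 can be shared with its pseudogene copy SLC6A10P, which had 24.7 and 21.2 CPM in overexpression A and B against 31.4 and 13.8 CPM in vector A and B. The other creatine genes on the enzyme list that passed, CKB and GAMT, rose, while GATM on that list was not among those that passed. CKB, brain-type creatine kinase, had 93.1 and 88.6 CPM in overexpression A and B against 38 and 34.3 CPM in vector (log2 fold change 1.33, SE 0.12, edgeR adjusted p = 1.89e-06). GAMT, the last enzyme of creatine synthesis, had 44.9 and 38.8 CPM in overexpression A and B against 24.9 and 22.5 CPM in vector (0.82, SE 0.14, edgeR adjusted p = 0.000846). SLC1A6, a glutamate carrier known from Purkinje cells, had 10 and 5 reads in overexpression A and B against 24 and 30 in vector A and B. In overexpression B it lay below the filter on low counts, so the overexpression libraries alone would not have passed it. The p-value of SLC1A6 is therefore a description only. Its log2 fold change of -1.72 (SE 0.52; adjusted p = 0.0357, edgeR) was -2.32 without overexpression A and -1.30 without overexpression B, and it passed in 5 of 10 alternatives (0.00729 to 0.410).

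SLC1A4, the carrier of serine, alanine and cysteine, was the fall that rested most on a single library. It had 57.1 and 55.8 CPM in overexpression A and B against 104 and 62.8 CPM in vector A and B. The other 3 libraries lay close together and vector A stood well above them. The log2 fold change was -0.56 (SE 0.17; adjusted p = 0.0402, edgeR) with all libraries, -0.16 without vector A (adjusted p = 0.481) and -0.88 without vector B (7.72e-09 to 0.481 over the alternatives). It also missed the threshold without overexpression B, with library totals and with limma-voom.

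The promoters of SLC7A1, SLC1A4 and SLC7A5 are shown because these 3 carriers are among those that ATF4 is known to induce. RefSeq windows of 250 bases before to 50 after each start (build GRCh38.p14) were searched on both strands for the core of the amino acid response element, TGATGNAA, and a window may hold it without being bound. Of the 6 genes that fell, 6 had a window and 2 held the core, SLC7A1 and SLC1A4 (in 1 of its 2 windows). Among the 5 that rose, 2 had a window and 1, SLC1A3, held the core. For the 19 tested genes that did not pass, 17 had a window and 2 held it. Whether the core goes with a change was not tested. Of the 43 genes of the families with a window, 5 held it (SLC1A3, SLC1A4, SLC1A5, SLC38A1 and SLC7A1), against 4.46% of 27305 genes. SLC6A15, SLC6A6 and SLC7A2 had no window in the table. The 280 bases that end 30 bases after the start are printed, with the core in capitals, for SLC7A1 at chr13:29595659-29595938 on the minus strand, for SLC1A4 at chr2:64989149-64989428 on the plus strand and for SLC7A5 at chr16:87869478-87869757 on the minus strand.
SLC7A1: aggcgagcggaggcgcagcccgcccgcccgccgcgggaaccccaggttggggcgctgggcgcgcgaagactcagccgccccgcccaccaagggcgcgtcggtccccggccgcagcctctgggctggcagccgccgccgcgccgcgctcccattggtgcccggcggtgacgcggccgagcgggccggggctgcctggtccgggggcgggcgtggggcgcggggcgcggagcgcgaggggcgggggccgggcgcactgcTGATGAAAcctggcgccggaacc
SLC1A4: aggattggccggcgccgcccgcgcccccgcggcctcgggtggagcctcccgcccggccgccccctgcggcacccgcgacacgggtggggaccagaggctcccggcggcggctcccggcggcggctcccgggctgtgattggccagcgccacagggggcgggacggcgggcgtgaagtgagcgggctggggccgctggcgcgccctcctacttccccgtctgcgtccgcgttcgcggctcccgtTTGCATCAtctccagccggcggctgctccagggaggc
SLC7A5: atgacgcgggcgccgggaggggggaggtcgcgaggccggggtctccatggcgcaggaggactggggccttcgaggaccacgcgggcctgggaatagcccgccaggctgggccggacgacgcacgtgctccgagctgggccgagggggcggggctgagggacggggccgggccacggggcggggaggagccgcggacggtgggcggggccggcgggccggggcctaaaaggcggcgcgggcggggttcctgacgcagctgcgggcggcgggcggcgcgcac
In SLC7A1 the core begins at base 8 of the transcript and reads along it, and in the rat gene an element of this kind is known in the transcribed leader. In SLC1A4 it begins 7 bases before the start, is read on the opposite strand and appears as TTGCATCA. The SLC7A5 window held no match to these letters.

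The main glutamine carriers did not pass the test. SLC1A5 had 413 and 401 CPM in overexpression A and B against 496 and 412 CPM in vector A and B, so that vector B lay between the overexpression libraries and the log2 difference was -0.16 (SE 0.12; adjusted p = 0.457, edgeR). By the annotation 23.8% of its exonic bases lie under opposite-strand exons, and the strand setting of the counting is not given in the sources used here. SLC38A2 had 944 and 993 CPM in overexpression A and B against 916 and 810 CPM in vector (log2 difference 0.17, SE 0.12, edgeR adjusted p = 0.411). SLC38A1 had 363 and 415 CPM in overexpression A and B against 468 and 445 CPM in vector (-0.23, SE 0.12, edgeR adjusted p = 0.233). SLC38A10 averaged 280 ± 21.0 CPM with overexpression and 312 ± 13.1 CPM in vector (SD, n = 2; edgeR adjusted p = 0.446). SLC7A6, a heavy chain partnered exchanger, averaged 62.1 ± 0.884 CPM with overexpression and 64.5 ± 9.87 CPM in vector (SD, n = 2; edgeR adjusted p = 0.843), with 55.6% of its exonic bases under opposite-strand exons, mostly of SLC7A6OS. SLC7A6OS itself did not pass either (19.9 ± 0.713 CPM with overexpression and 22.5 ± 0.843 CPM in vector; SD, n = 2; edgeR adjusted p = 0.485).

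Carriers of GABA, glycine and dopamine came next in order of p without passing. SLC6A12, the betaine and GABA carrier, had 10.1 and 9.92 CPM in overexpression A and B against 7.43 and 6.54 CPM in vector (log2 difference 0.52, SE 0.19, edgeR adjusted p = 0.0799). It passed without vector A at an adjusted p of 0.0216, and over all alternatives the value ran from 0.0216 to 0.361. SLC38A9, the lysosomal arginine sensor of the mTORC1 pathway, had 18 and 17.9 CPM in overexpression A and B against 14.8 and 12.1 CPM in vector (0.41, SE 0.16, edgeR adjusted p = 0.113), and passed only without vector A (0.0153 to 0.415 over the alternatives). SLC6A9, the glycine carrier, had 31.0 and 30.4 CPM in overexpression A and B against 55.3 and 30.2 CPM in vector A and B. The log2 difference of -0.48 (SE 0.20; adjusted p = 0.134, edgeR) was 0.02 without vector A and -0.85 without vector B (5.92e-07 to 0.954 over the alternatives). SLC6A3, the dopamine carrier, had 31 and 32 reads in overexpression A and B against 94 and 36 in vector A and B, with a log2 difference of -0.85 (SE 0.37; adjusted p = 0.147, edgeR) that was -0.28 without vector A (0.00516 to 0.708 over the alternatives).

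Vector A was thus high for several of these genes, as it was for genes of the amino acid response, the ATF4 programme of amino acid shortage. Vector A exceeded vector B by more than 1.5 times for 6 of the 30 tested family genes (SLC1A1, SLC1A4, SLC6A3, SLC6A9, SLC7A7 and SLC43A1) and for 10.7% of all tested genes. It was the highest of the 4 libraries for 10 of the 30, for 3 of the 6 that fell (SLC1A4, SLC7A1 and SLC7A5) and for 24.7% of all tested genes. Of 27 tested amino acid response genes, it was the highest library for 21. In that list 6 genes fell, 0 rose and 21 did not pass, with 24 of 27 below 0 and a median log2 fold change of -0.24, against 6.67% lower among all tested genes. The 6 were DDIT4, TRIB3, SESN2, VLDLR, NUPR1 and ALDH1L2, of which NUPR1 missed the threshold without vector A (adjusted p = 0.0781; 4.51e-09 to 0.0781 over the alternatives). In all, 6 of the list were lower without vector A (9.19% of all genes) and 14 without vector B (8.75% of all genes). The list summed to 3860 and 3987 CPM in overexpression A and B against 5104 and 4103 CPM in vector A and B. ATF4 itself had 577 and 621 CPM in overexpression A and B against 681 and 539 CPM in vector, and ASNS, asparagine synthetase, 316 and 350 CPM against 348 and 296 CPM in vector; neither passed (edgeR adjusted p = 0.927 for ATF4 and 0.853 for ASNS). ALDH1L2, a mitochondrial folate enzyme, did not share the excess in vector A. It had 9 and 7 reads in overexpression A and B against 66 and 51 in vector A and B (log2 fold change -2.71, SE 0.42, edgeR adjusted p = 0.000318). ALDH1L2 passed the filter on low counts only through the vector libraries, so its p-value and its place among the 6 are a description only. Among the transporters that fell, SLC43A2, SLC6A8 and SLC1A6 did not share the excess in vector A either. Their vector A values lay under those of vector B, for SLC1A6 at few reads (0.566 and 0.952 CPM in vector A and B). What part the state of vector A had in the falls was not tested.

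**Figure D4:**
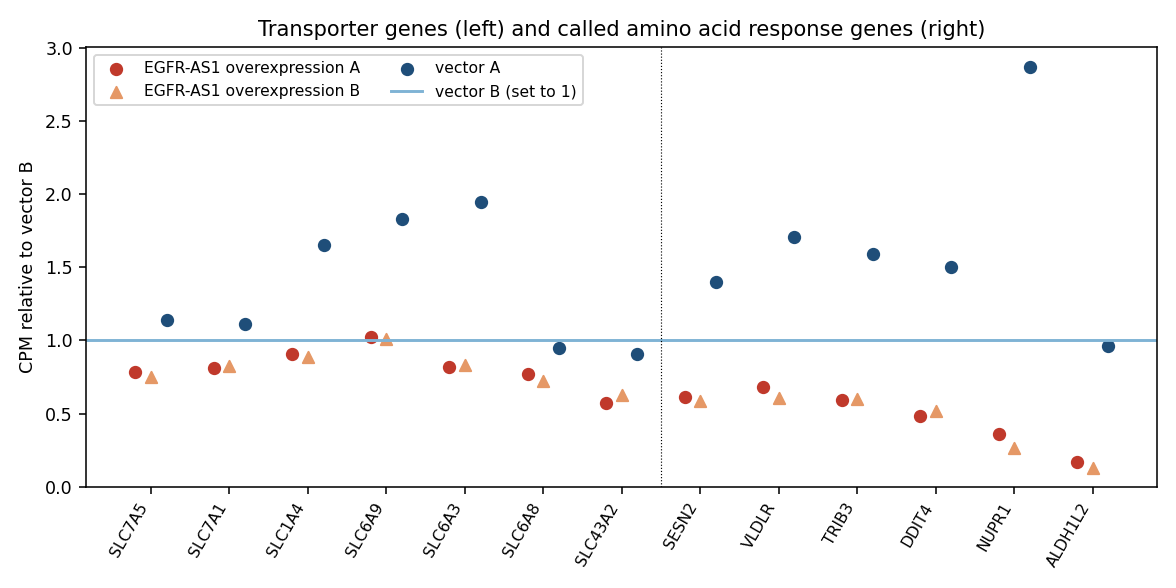
CPM of EGFR-AS1 overexpression A and B and of vector A, each divided by that of vector B (line at 1), for 7 transporter genes (left) and the 6 amino acid response genes that fell (right). For SLC1A4, SLC6A9 and SLC6A3 vector A stands alone above the other libraries, with 104, 55.3 and 2.22 CPM, while for SLC43A2 and SLC6A8 both vector libraries lie above both overexpression libraries.

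SLC38A6, a less studied SLC38 carrier, stood out by its place. It lies on chromosome 14 inside the block of neighbouring genes that were lower with overexpression. Of the 50 tested coding genes nearest to it, 25 on each side, 42 passed the test, and their median log2 fold change was -0.88. SLC38A6 had 3.62 and 3.98 CPM in overexpression A and B against 4.27 and 3.68 CPM in vector A and B, so the groups overlapped, with a log2 difference of -0.07 (SE 0.23; adjusted p = 0.890, edgeR). The difference between SLC38A6 and its neighbours was not tested. With 120 and 134 reads in overexpression A and B against 181 and 116 in vector A and B its depth was low, and 4.76% of its exonic bases lie under opposite-strand exons of TRMT5. HSPA2 was the one neighbour with a higher value (0.49, edgeR adjusted p = 0.0582). SLC38A6 was not alone in a small difference, since AKAP5 (-0.19, SE 0.48), CHURC1 (-0.23, SE 0.22) and PLEKHH1 (-0.37, SE 0.33) did not pass either. For the other tested genes of the families the median of the neighbours lay between -0.16 and 0.18.

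**Figure D5:**
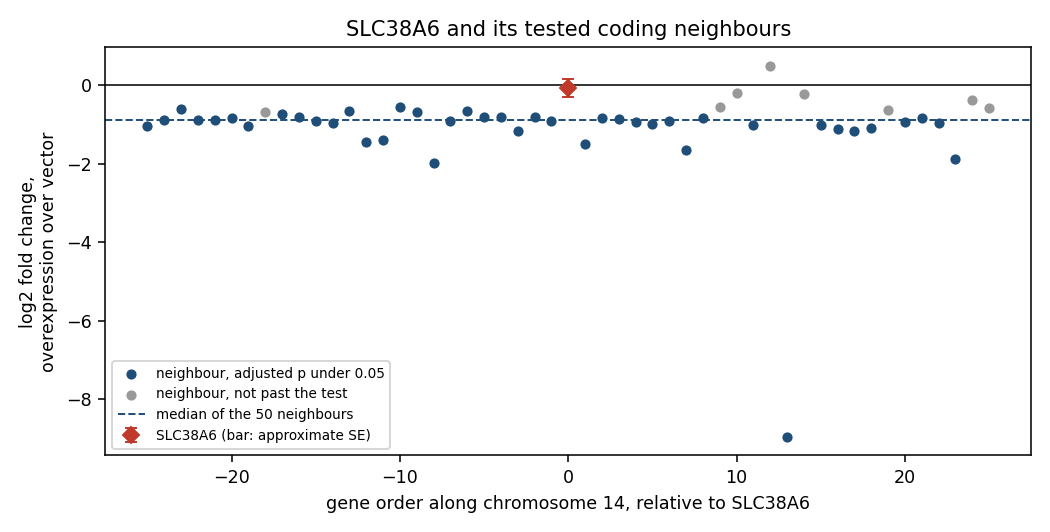
Log2 fold change, EGFR-AS1 overexpression over vector, of SLC38A6 (diamond, with approximate SE) and of the 25 tested coding genes on each side in gene order along chromosome 14. SLC38A6 lies at -0.07, above the dashed neighbour median of -0.88.

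The remaining tested transporters did not pass. Glutamate carrier SLC1A1 had 1.26 ± 0.0272 CPM with overexpression and 0.809 ± 0.291 CPM in vector (SD, n = 2; log2 difference 0.61, edgeR adjusted p = 0.315), and SLC7A7 had 1.0 ± 0.0756 CPM with overexpression and 0.655 ± 0.342 CPM in vector (0.58, edgeR adjusted p = 0.413). The lysosomal carriers SLC36A1 and SLC38A7, the GABA and taurine carrier SLC6A13 and the SLC6 members SLC6A16 and SLC6A17 had log2 differences between -0.12 and 0.18. Over all tested genes of the families that did not pass, the differences ran from -0.85 to 0.61.

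Of the 26 genes not tested, 11 had 0 reads in all libraries, which allows up to 3 reads in each. They were SLC6A5, SLC6A7, SLC6A18, SLC6A20, SLC7A3, SLC7A4, SLC7A13, SLC36A2, SLC36A3, SLC38A8 and SLC38A11. The other 15 had at most 35 reads over the 4 libraries, the most in SLC7A9, a light chain of the kidney cystine carrier. Among them the carriers of noradrenaline (SLC6A2) and renal neutral amino acids (SLC6A19) had 0 reads with overexpression against 5 reads each in vector. SLC6A4, the serotonin carrier, had 1 and 0 reads in overexpression A and B against 1 and 2 in vector. At this depth no difference in these genes could be detected.

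The other lists are read against the same shares of all tested genes, 14.5% passing, 7.8% higher and 6.67% lower. Of 3 tested heavy chains and membrane partners, SLC3A2 fell and ARL6IP5, known in the rat to restrain the glutamate carrier Slc1a1, rose, with 28.8 and 29.4 CPM in overexpression A and B against 20.1 and 18.2 CPM in vector (log2 fold change 0.60, SE 0.14, edgeR adjusted p = 0.00949). Both calls were lost without overexpression A and without overexpression B. Of 18 other carriers of amino acids, peptides and transmitters, 1 rose and 0 fell. The number that rose moved up or down when vector A or either overexpression library was left out. The gene was SLC17A7, a vesicular glutamate transporter, with 5.50 and 3.89 CPM in overexpression A and B against 2.88 and 1.94 CPM in vector (log2 fold change 0.95, SE 0.27, edgeR adjusted p = 0.0268), and it missed the threshold without overexpression A and with library totals (6.67e-05 to 0.343 over the alternatives). The lists' medians were -0.05 and 0.06 beside 0.00 over all genes.

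Of 20 cytosolic aminoacyl-tRNA synthetases, which load amino acids for translation, QARS1 rose (163 and 146 CPM in overexpression A and B against 119 and 108 CPM in vector; edgeR adjusted p = 0.0196) and WARS1 fell (72.2 and 82.7 CPM in overexpression A and B against 119 and 109 CPM in vector; edgeR adjusted p = 0.00524). QARS1 did not pass without either overexpression library, nor WARS1 without overexpression A. With DESeq2 the list had 1 higher and 3 lower, where 2125 genes passed over the whole table. The counts also moved when a vector library was left out. Of 29 tested genes of lysosomal amino acid sensing and of mTORC1 itself, 5 fell, 0 rose and 24 did not pass. Their median was -0.02, and among all tested genes 14.5% passed and 6.67% were lower. MLST8, a subunit of mTORC1, had 50.8 and 46.5 CPM in overexpression A and B against 85.3 and 78.5 CPM in vector (log2 fold change -0.75, SE 0.12, edgeR adjusted p = 0.000500). NPRL3, of the complex that holds mTORC1 back, fell too (-0.49, SE 0.12, edgeR adjusted p = 0.00925). Both lie on chromosome 16, where the medians of their neighbours were -0.64 for MLST8 and -0.74 for NPRL3. NPRL3 missed the threshold without overexpression B. SESN2, a leucine sensor also on the amino acid response list, SEH1L and RPTOR made up the 5, and the calls of SEH1L and RPTOR were lost with limma-voom, without vector B and without either overexpression library. Of 17 tested enzymes of glutamine, glutamate and transmitters, CKB and GAMT rose and GOT1, the cytosolic aspartate aminotransferase, fell (117 and 129 CPM in overexpression A and B against 167 and 154 CPM in vector; edgeR adjusted p = 0.0395), the last not without vector A or either overexpression library; 3 of 17 is near the 14.5% of all tested genes. Glutamine synthetase (GLUL) had 181 and 184 CPM in overexpression A and B against 153 and 180 CPM in vector and did not pass (edgeR adjusted p = 0.528).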

How the data were processed

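Messenger RNA was sequenced in 2 EGFR-AS1 overexpression and 2 vector libraries, as stranded libraries with inserts of 250 to 300 bp per the labels' protocols. The deposited values are raw read counts, whole numbers for each Ensembl gene. The submitters' processing notes name STAR, HTSeq, DESeq2 and hg19 without roles; annotation release and strand setting: not given in the sources used here. All 4 columns of counts were used, and 0 rows lacked a gene identifier.

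The main test was edgeR's quasi-likelihood test (edgeR 4.0.16, R 4.3.3) with TMM factors and filterByExpr (minimum count 10). Group was its single term, and it ran on the whole table (48162 genes, 16106 tested). P-values were adjusted by Benjamini-Hochberg over all tested genes and called under 0.05. SE is approximate, from the log2 fold change and the F statistic. The steps were tested on simulated data.

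Symbols came from the reference table for 45038 identifiers. Biotypes, gene order, overlaps and exon lengths (union of exons) came from GENCODE release 29, which is on GRCh38, so levels per kilobase carry that limit. Intervals and floors cover counting error only. Named genes were EGFR-AS1, every transporter gene called, the 10 highest per kilobase, the 5 not called with the smallest p, SLC3A1 and SLC3A2, and up to 4 per pathway list; further genes were named after their values were seen. The genes and lists were chosen with earlier results of these data known. Alternatives were DESeq2 1.42.0, limma-voom (limma 3.58.1), RLE factors, library totals, no filter, at least 1 CPM in 2 libraries, leaving out each library, and the set letter as a block. Tables used Python 3.11.15, pandas 2.3.3 and scipy 1.17.1.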

Additional observations from a re-analysis of the deposited data

How the results depend on the processing

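The count of transporter genes past the test, 11 with all libraries, was 9 to 12 under the alternatives that keep all 4 libraries. Leaving out a library gave 4 to 12 (lowest without overexpression B), with 3 to 6 higher and 1 to 7 lower; the lower count was 1 both without overexpression A and without overexpression B. The cause was not tested, and a group left with 1 library is assumed to vary like the other. Over all genes the count of 2332 ran from 1271 without overexpression B to 3522 without vector A. With the set letter as a replicate block 3467 genes passed, 12 of them in these families (SLC6A12 in addition to the 11). Same-letter libraries deviated together with a correlation of 0.269 across genes, but the labels do not say that letters pair the libraries. With libraries left out, the log2 difference changed sign for SLC6A9 (-0.85 without vector B to 0.02 without vector A), SLC7A6 (-0.21 without vector A to 0.11 without vector B), SLC3A1 (-0.37 without overexpression B to 0.25 without vector A, and 0.21 without overexpression A), and also for SLC6A16, SLC36A1, SLC38A6, SLC38A7 and SLC43A1, none of which was called with all libraries; ATF4 gave 0.15 without vector A and -0.19 without vector B. With the block, where 3467 genes passed in all, 4 of the other carriers and 3 of the synthetases were higher and 3 synthetases lower. Without the filter on low counts, where 2792 genes passed in all, 3 synthetases and 9 amino acid response genes were lower. Depth limits the 26 genes not tested and the vector levels of SLC6A15 and SLC1A3, which rest on 3 and 2 reads.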
